A study of Saccharomyces cerevisiae with 10 samples.

Results

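The subject is the nuclear genes of mitochondrial respiration in budding yeast: 46 listed genes for the respiratory chain, ATP synthase and the tricarboxylic acid (TCA) cycle, followed in 5 temperature-sensitive mutants of the SCF ubiquitin ligase. Members were listed by gene name and complex, with earlier results of these data known, and all 46 were measured, each by 1 probe set, among 5449 named genes. They fall into 1 NADH dehydrogenase gene, 4 genes of complex II, 9 of complex III, 2 of cytochrome c, 9 of complex IV, 11 of ATP synthase and 10 of the TCA cycle. The strains carry skp1-25 (strain py1374) or skp1-11 (W303), both alleles of the SCF adaptor Skp1, cdc4-3 (py187) in the F-box protein Cdc4, cdc53-1 (py175) in the cullin, or cdc34-3 (py24) in the ubiquitin-conjugating enzyme. Each was grown in the rich medium YPDA at 25 °C, called RT here as in the labels, and then held for 1 h at 35 °C or at RT. There is 1 array per strain and temperature, 10 in all, and all strains carry a mutant SCF allele, so no array here shows warming with an intact SCF.

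Respiration in yeast mitochondria starts with the TCA cycle, which oxidises acetyl groups. The NADH and succinate formed in it supply electrons to the chain. An internal NADH dehydrogenase and succinate dehydrogenase (complex II) hand those electrons to ubiquinone, complex III hands them on to cytochrome c, and complex IV reduces oxygen. ATP synthase then uses the proton gradient. In glucose medium yeast mostly ferments and holds many of these genes below the level they reach on a non-fermentable carbon source, and the Hap2/3/4/5 activator, limited by its Hap4 subunit, drives many of them when respiration is needed.

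Levels are on a log2 scale, so a difference of 1 is a 2-fold difference, and levels of different genes are not set against each other because each comes from its own probe set. Array medians lay between 10.96 and 11.14. Mating-type markers also differed between strains. The median of 6 a-specific genes was 6.92 at 35 °C and 7.34 at RT in cdc53-1, and between 11.38 and 12.28 on the other 8 arrays. The pheromone receptor gene STE2, of that list, stood at 6.41 and 7.39 in cdc53-1 at 35 °C and RT, and between 12.14 and 13.24 on the other 8 arrays. BAR1, another a-specific gene, stood between 7.26 and 7.91 in skp1-25, cdc4-3 and cdc53-1, and between 11.65 and 12.11 in cdc34-3 and skp1-11. The median of 4 alpha-specific genes was 7.52 at 35 °C and 6.48 at RT in cdc53-1. It lay between 5.93 and 7.03 on the other 8 arrays, a range that holds the cdc53-1 value at RT. The part of strain background in the strain differences below was not tested.

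The electron transport genes stood lowest in skp1-25, at both temperatures. For 25 of the 46 genes, both skp1-25 arrays lay below all 8 arrays of the other strains, which held for 5.08% of all genes. Of the 24 genes for complexes II, III, IV and cytochrome c, 22 showed this, against 3 of 11 ATP synthase genes, 0 of 10 TCA cycle genes and not the NADH dehydrogenase gene. The standing level of a strain, meaning its level over both temperatures against the mean of the other 4 strains, was tested with limma across all genes. It was lower in skp1-25 for 18 of 46 genes and higher for 0, where 1.73% of all genes were called lower and 1.08% higher. At an unadjusted p under 0.05 it differed for 35 of 46 genes and 23.7% of all genes. Of the 46, 44 stood below the mean of the others (50.4% of all genes), and the median difference was -0.49 over the 46 genes and 0.00 over all genes. In that fit a strain's own arrays at both temperatures serve as its repeats, and the labels do not say whether they came from separate cultures, so p-values measure only the spread between these arrays. The skp1-25 strain was picked out with its change at 35 °C known, and the same arrays give its standing level.

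**Figure D1:**
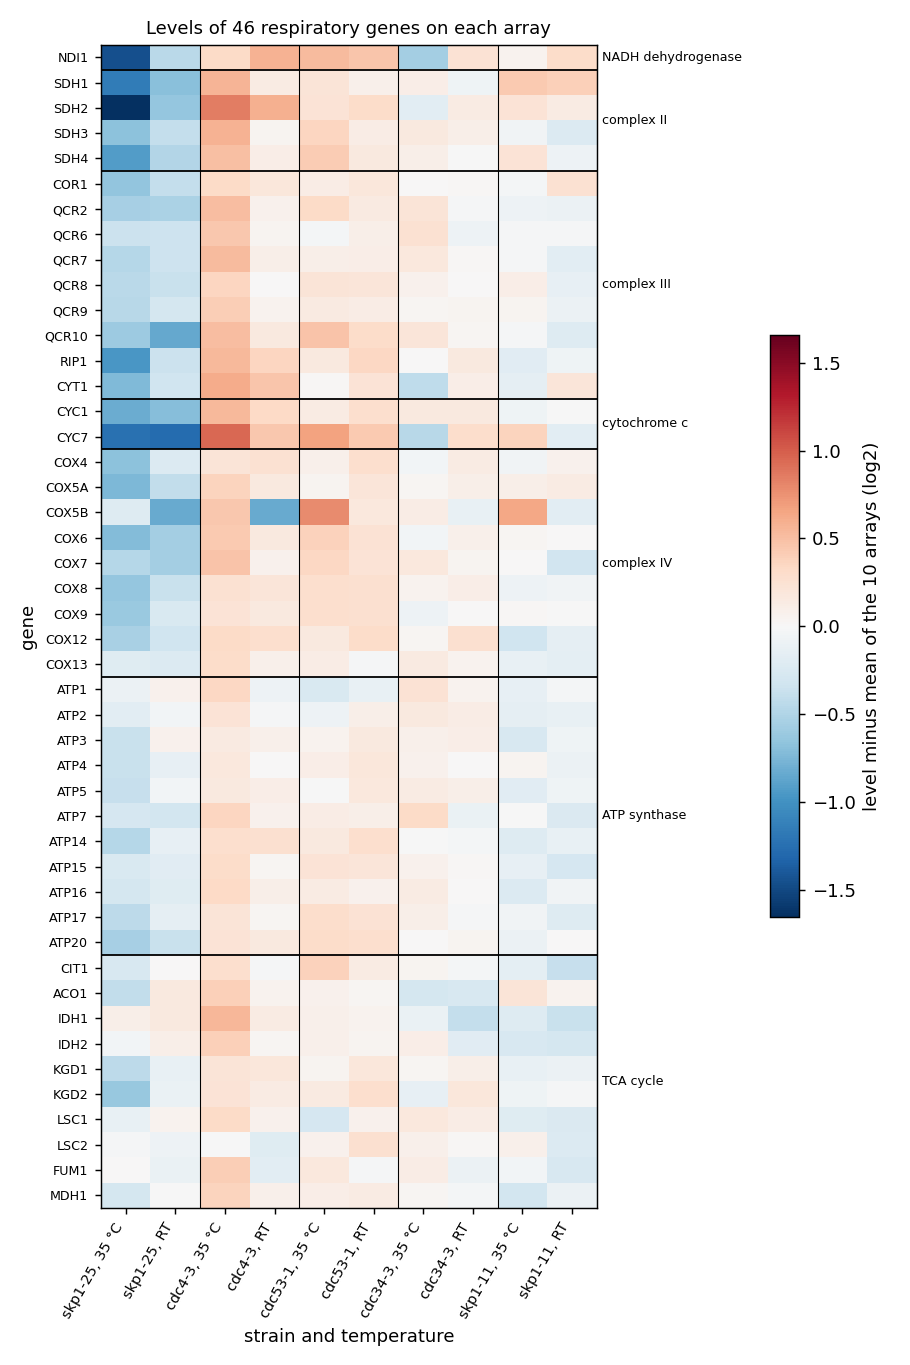
Level of each of the 46 genes on each array, as the difference from that gene's mean over the 10 arrays (log2, blue lower, red higher), with genes down the page by complex and arrays across by strain and temperature. The skp1-25 arrays are blue through complexes II to IV and cytochrome c and paler through ATP synthase and the TCA cycle, and the cdc4-3 array at 35 °C is red through most rows.

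NDI1 encodes the internal NADH dehydrogenase, the single-polypeptide enzyme that stands in for complex I in this yeast. It stood in skp1-25 at 9.61 at 35 °C and 10.62 at RT, against a lowest of 10.51, a median of 11.39 and a highest of 11.65 over the other 8 arrays. The cdc34-3 array at 35 °C lay between the skp1-25 arrays, so the groups overlapped, and the standing difference was -1.19 (95% interval -1.68 to -0.71, adjusted p = 0.0357). In complex II, which oxidises succinate and belongs to both the TCA cycle and the chain, all 4 genes lay below every other array in skp1-25. SDH2, the iron-sulfur subunit gene, stood in skp1-25 at 10.36 at 35 °C and 11.37 at RT, against a lowest of 11.84, a median of 12.24 and a highest of 12.86 elsewhere. Its standing difference was -1.44 (95% interval -1.98 to -0.90, adjusted p = 0.0301), or 2.71-fold lower. The flavoprotein gene SDH1 stood in skp1-25 at 10.69 at 35 °C and 11.15 at RT, against a lowest of 11.77, a median of 12.02 and a highest of 12.41 elsewhere, and the membrane anchor gene SDH4 at 11.32 at 35 °C and 11.76 at RT, against a lowest of 12.16, a median of 12.38 and a highest of 12.74. Neither overlapped with the other strains, and they differed by -1.15 and -0.89 (limma adjusted p = 0.0253 and 0.0434). The other anchor gene, SDH3, had a difference of -0.67 that did not pass (adjusted p = 0.0681).

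Complex III carries electrons from ubiquinol to cytochrome c, and 4 of its 9 genes were lower in skp1-25. QCR10, a small subunit gene, stood in skp1-25 at 11.93 at 35 °C and 11.70 at RT, against a lowest of 12.32, a median of 12.72 and a highest of 13.04 elsewhere. Its difference of -0.90 (95% interval -1.08 to -0.72, adjusted p = 0.00645) had the smallest adjusted p of the 46 genes. The Rieske iron-sulfur protein gene RIP1 stood in skp1-25 at 11.51 at 35 °C and 12.11 at RT, against a lowest of 12.28, a median of 12.63 and a highest of 13.01 elsewhere. It differed by -0.82 and the core protein genes COR1 and QCR2 by -0.65 and -0.66 (limma adjusted p = 0.0358, 0.0289 and 0.0309). CYT1, which encodes cytochrome c1, and the small subunit genes QCR6, QCR7, QCR8 and QCR9 had differences from -0.67 to -0.44, none past the threshold (adjusted p from 0.0567 to 0.105).

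Both genes for cytochrome c, the soluble carrier between complexes III and IV, were lower in skp1-25. CYC1, which encodes the major aerobic isoform, stood in skp1-25 at 12.11 at 35 °C and 12.22 at RT, against a lowest of 12.85, a median of 13.08 and a highest of 13.46 elsewhere, a difference of -0.95 (95% interval -1.17 to -0.73, adjusted p = 0.00677). CYC7, which encodes the isoform favoured at low oxygen, stood in skp1-25 at 10.10 at 35 °C and 10.06 at RT, against a lowest of 10.88, a median of 11.74 and a highest of 12.29 elsewhere. Its difference was -1.57 (adjusted p = 0.0289), or 2.98-fold, the widest among the 46 genes. For neither gene did the skp1-25 arrays overlap the others.

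Complex IV, cytochrome c oxidase, has a mitochondrially encoded core, which was not analysed here, and nuclear subunits, of which 7 of 9 genes were lower in skp1-25. COX6 differed by -0.80 (95% interval -1.05 to -0.55, adjusted p = 0.021), with 11.87 at 35 °C and 12.02 at RT in skp1-25, against a lowest of 12.53, a median of 12.71 and a highest of 13.02 elsewhere. The skp1-25 values lay below all others. COX5A, the gene for the aerobic form of subunit V, stood in skp1-25 at 11.90 at 35 °C and 12.24 at RT, against a lowest of 12.68, a median of 12.76 and a highest of 13.02 elsewhere, a difference of -0.72 (95% interval -0.98 to -0.45, adjusted p = 0.0289). The differences of the small subunit genes COX4, COX7, COX8, COX9 and COX12 ran from -0.64 to -0.54 (limma adjusted p from 0.0249 to 0.0495). COX5B, the gene for the low-oxygen form of subunit V, and COX13 had differences of -0.65 and -0.27 that did not pass (adjusted p = 0.101 and 0.105).

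**Figure D2:**
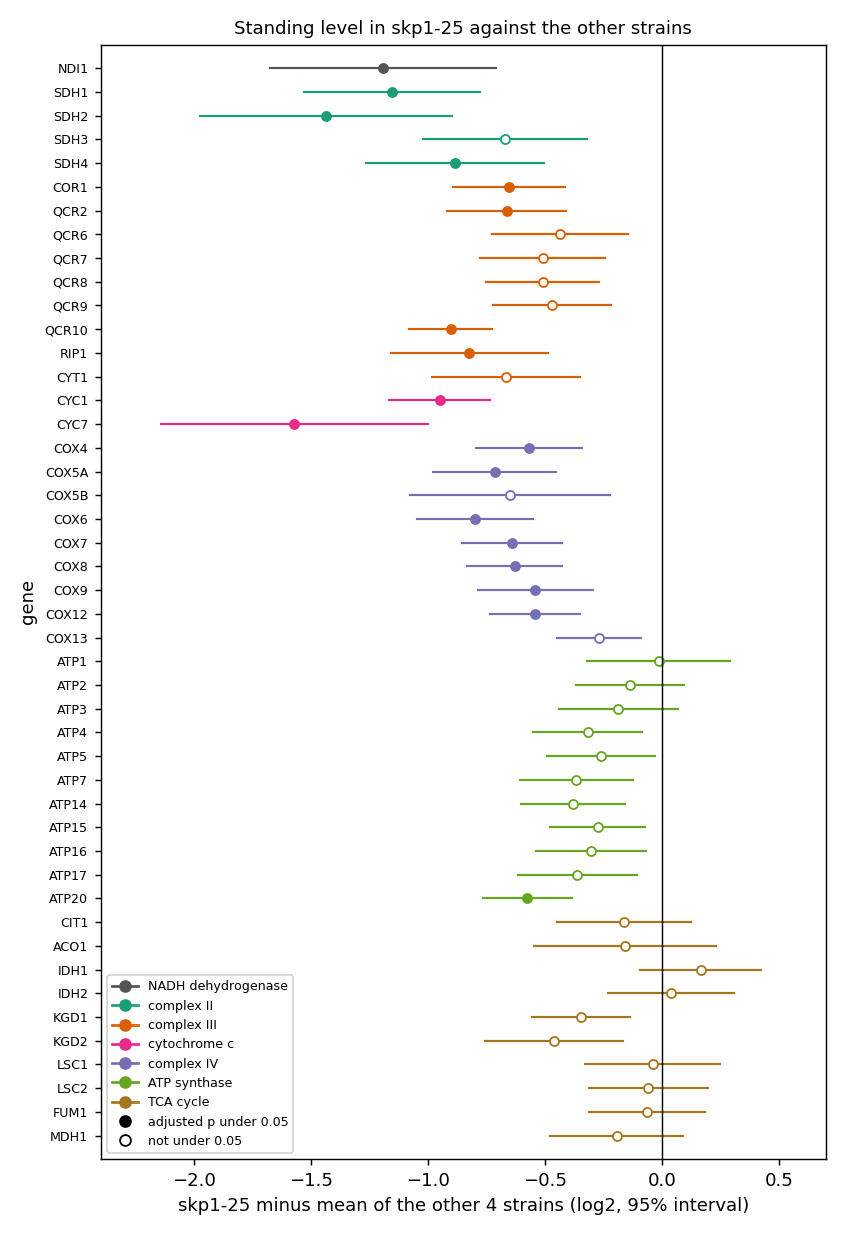
Standing level in skp1-25 minus the mean of the other 4 strains for each of the 46 genes (log2, points with 95% intervals from limma, coloured by complex, filled where adjusted p is under 0.05). Filled points cover the NADH dehydrogenase gene, most of complexes II and IV and both cytochrome c genes, while ATP20 is the one filled point among ATP synthase and TCA cycle genes.

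ATP synthase and TCA cycle genes stood closer to the other strains. In ATP synthase, which makes ATP from the proton gradient, 1 of 11 genes was lower in skp1-25 and the median difference was -0.30. That gene was ATP20, for subunit g, which acts in dimer formation: it stood in skp1-25 at 12.21 at 35 °C and 12.39 at RT, against a lowest of 12.66, a median of 12.86 and a highest of 13.07 elsewhere, a difference of -0.58 (95% interval -0.76 to -0.39, adjusted p = 0.0253). The catalytic alpha and beta subunit genes ATP1 and ATP2 differed by -0.01 and -0.14 (adjusted p = 0.961 and 0.436).

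Of the 10 TCA cycle genes 0 were called in skp1-25 by limma, 2 had an unadjusted p under 0.05, and the median difference was -0.11. IDH1 and IDH2 encode the subunits of NAD-dependent isocitrate dehydrogenase. They are the only members whose standing level, over both temperatures, was above the mean of the other strains. IDH1 stood in skp1-25 at 12.81 at 35 °C and 12.88 at RT, against a lowest of 12.32, a median of 12.69 and a highest of 13.27 elsewhere. IDH2 stood in skp1-25 at 13.15 at 35 °C and 13.29 at RT, against a lowest of 12.89, a median of 13.23 and a highest of 13.59 elsewhere. Both genes overlapped with the other strains, with differences of 0.17 (95% interval -0.09 to 0.43) and 0.04 (-0.23 to 0.31). KGD1 and KGD2, for the alpha-ketoglutarate dehydrogenase complex, had the lowest differences of the cycle, -0.35 and -0.46 (adjusted p = 0.0865 and 0.0961). CIT1 (citrate synthase), ACO1 (aconitase), LSC1 and LSC2 (succinyl-CoA ligase), FUM1 (fumarase) and MDH1 (malate dehydrogenase) had differences between -0.19 and -0.04. Whether the electron transport genes as a group differ from the other members was not tested.

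The low levels of electron transport genes in skp1-25 were seen at each temperature taken alone. For most TCA cycle genes they were not seen at RT. At 35 °C skp1-25 had the lowest level of the 5 strains for 40 of 46 genes (23.2% of all genes), with a median of -0.62 from the mean of the others. At RT it was lowest for 31 of 46 (20% of all genes), with a median of -0.35. It was the highest at RT for 4 of 46 (25.6% of all genes), namely ACO1, IDH1, IDH2 and ATP1. The TCA cycle genes CIT1, LSC1 and FUM1 also stood above the mean of the others at RT. Over complexes II to IV and cytochrome c it was lowest for 24 of 24 genes at 35 °C and 23 of 24 at RT. How many genes passed depended on which strains stood on the other side. Leaving out cdc53-1 left 2 lower genes, QCR10 and CYC1, leaving out skp1-11 left 7, leaving out cdc4-3 left 11 and leaving out cdc34-3 left 15, while the median difference stayed between -0.53 and -0.44. Against 1 strain at a time in the same fit, 19 genes were lower than in cdc53-1, 17 than in cdc4-3, 3 than in skp1-11 and 2 than in cdc34-3, where 3.38%, 2.83%, 1.3% and 0.22% of all genes were. The 3 lower than in skp1-11, the other allele of the same gene, were SDH1, QCR10 and CYC1. The median difference from skp1-11 was -0.32, with 36 of 46 genes lower, where the median over all genes was -0.01.

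Fewer members were called in the other strains. In cdc4-3, 44 of 46 genes stood above the mean of the other strains (53.2% of all genes), with a median of 0.28, and 2 were called higher where 2.46% of all genes were. CYC1 stood in cdc4-3 at 13.46 at 35 °C and 13.25 at RT, a difference of 0.54 (95% interval 0.32 to 0.75, adjusted p = 0.0341), and QCR10 at 13.04 at 35 °C and 12.70 at RT, a difference of 0.42 (95% interval 0.24 to 0.60, adjusted p = 0.0376). The mean of the other strains includes the low skp1-25 arrays, and without skp1-25, or without skp1-11, 0 members were called higher in cdc4-3, with a median of 0.18 without skp1-25. In cdc53-1, 44 of 46 genes also stood above the mean of the other strains (43.2% of all genes), with a median of 0.21. The 2 genes called higher were QCR10 and ATP20 (2.72% of all genes), with differences of 0.48 and 0.37 (limma adjusted p = 0.0191 and 0.0493). At RT cdc53-1 was the highest of the strains for 29 of 46 genes (17.6% of all genes) and cdc4-3 for 9 (15.6%). At 35 °C cdc4-3 was the highest for 38 (25.4%) and cdc53-1 for 7 (17.1%). The cdc53-1 median was 0.11 without skp1-25 (-0.04 over all genes), with 37 of 46 genes above the others, and 0.32 without cdc4-3. ATP20 missed the threshold when any strain was left out, and without skp1-11 or without skp1-25 limma called 0 genes. In cdc34-3 and skp1-11, medians were 0.06 and -0.10 and limma called 0 of 46 genes, where 0.33% and 4.66% of all genes were called either way. At an unadjusted p under 0.05, 1 and 6 members differed, against 12.3% and 22.2% of all genes. Without skp1-25 the medians were -0.05 in cdc34-3 (0.03 over all genes), with 36 of 46 genes below the others, and -0.24 in skp1-11 (0.00 over all genes), with 43 of 46 below. Without cdc53-1 or without cdc4-3 the medians were 0.13 and 0.14 in cdc34-3, and -0.04 and -0.03 in skp1-11.

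Changes within each strain, 35 °C minus RT, ran in opposite directions in skp1-25 and cdc4-3. In skp1-25, 38 of 46 genes had a change below 0, against 47.2% of all genes, and the median change was -0.19 against 0.01 over all genes. In cdc4-3, 44 of 46 had a change above 0, against 63.6% of all genes, with a median of 0.25 against 0.10. Scaling moved the size in cdc4-3: the members' median was 0.12 after median centring and 0.08 after quantile normalization, with all-gene medians of -0.02 and -0.03, while in skp1-25 it was -0.23 and -0.21. The remaining strains had medians of 0.01 in cdc53-1, 0.05 in cdc34-3 and 0.03 in skp1-11, with 25, 27 and 26 of 46 genes above 0, where 49.7%, 58.1% and 63.7% of all genes were. These 3 medians lie near 0 and have no settled sign: after median centring they were -0.02, -0.02 and -0.08, and after quantile normalization 0.02, -0.04 and -0.13. These changes were known when skp1-25 and cdc4-3 were picked out, so they describe these arrays, and with 1 array per strain and temperature none was tested within a strain. Of the 46 genes, 36 had a change above 0 in cdc4-3 and below 0 in skp1-25, as had 22.3% of all genes.

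**Figure D3:**
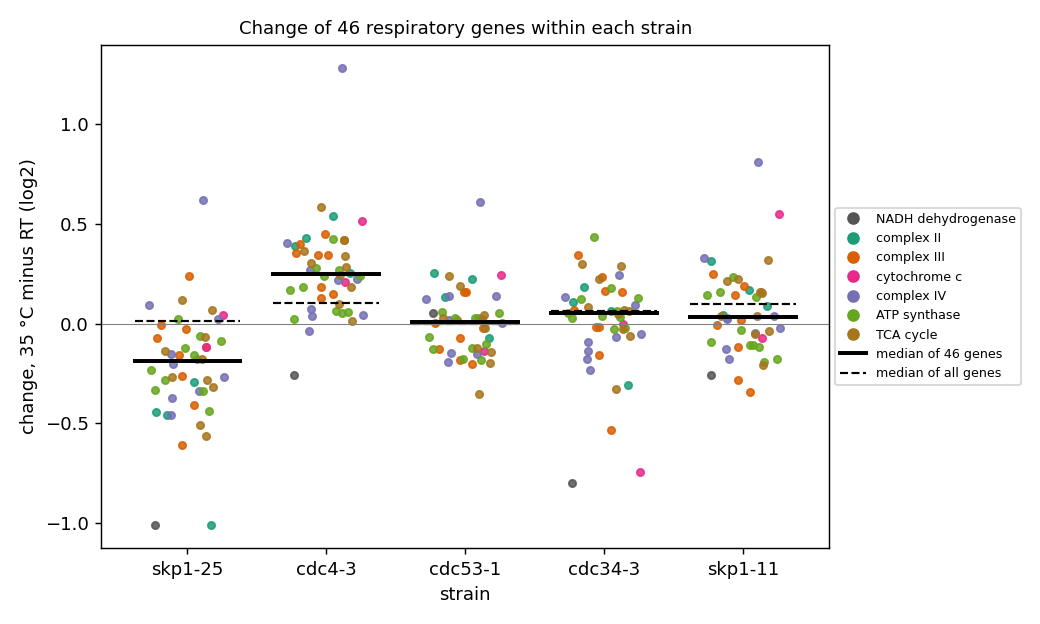
Change of each of the 46 genes within each strain (35 °C minus RT, log2), coloured by complex and spread sideways for legibility, with the median of the 46 genes as a solid line and the median of all genes as a dashed line. The solid line lies at -0.19 in skp1-25 and 0.25 in cdc4-3.

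The changes in cdc4-3 were small for most genes. The median was 0.41 in complex II, 0.35 in complex III, 0.36 in cytochrome c, 0.22 in complex IV, 0.18 in ATP synthase and 0.29 in the TCA cycle, and all genes of these groups but COX4 had a change above 0. COX5B had the highest, 1.28, against a mean of 0.57 in the other strains. FUM1 followed with 0.58 against 0.19, SDH3 with 0.54 against 0.04, CYC7 with 0.51 against 0.02 and QCR2 with 0.45 against 0.09. These 4 genes stand for the TCA cycle, complex II, cytochrome c and complex III. The lowest were -0.26 for NDI1, -0.04 for COX4, 0.01 for KGD1, 0.02 for the ATP synthase subunit gene ATP14 and 0.04 for COX12. A change above 0.5 was reached by 4 of 46 genes, against 15.1% of all genes. The members shared a direction, with mostly small changes.

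In skp1-25 the 5 lowest changes were in NDI1, complex II, complex III and the TCA cycle. All 4 complex II genes had a change below 0, with a median of -0.45, beside medians of -0.12 in complex III, -0.20 in complex IV, -0.18 in ATP synthase and -0.22 in the TCA cycle. The cytochrome c genes CYC1 and CYC7 changed by -0.12 and 0.04. NDI1 and SDH2 each had a change of -1.01, against means of -0.31 and -0.01 in the other strains. RIP1 had -0.61 against -0.07, ACO1 -0.56 against 0.13 and KGD2 -0.51 against -0.10. Falls were not limited to skp1-25: in cdc34-3 NDI1 changed by -0.80, SDH2 by -0.31 and KGD2 by -0.33. Only in cdc53-1 did NDI1 have a change above 0. ACO1 and KGD2 belong to the TCA cycle. ACO1 stood in skp1-25 at 12.73 at 35 °C and 13.29 at RT, the lowest of the 5 strains at 35 °C and the highest at RT. The highest changes were 0.62 for COX5B, 0.24 for QCR10, 0.12 for FUM1, 0.09 for COX7 and 0.07 for LSC2. Changes below -0.5 were reached by 5 of 46 genes (5.41% of all genes).

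Tests of these strain differences in change set the lone change of a strain against those of at most 4 others. Only a very large difference could pass, so an absence of calls does not show that the strains changed alike. Limma on the 5 within-strain changes, with the lone strain assumed to vary like the others, called 0 of 46 members and 0% of all genes for cdc4-3 against the other 4 strains, for skp1-25 against the other 4, and for cdc4-3 against skp1-25. All 46 genes had a higher change in cdc4-3 than the mean of the others (60.9% of all genes), with a median difference of 0.30, and 3 had an unadjusted p under 0.05 (3.62% of all genes). In skp1-25, 45 of 46 changed by less, or further down, than the average of the remaining strains (59.6% of all genes), with a median of -0.26, and 7 had an unadjusted p under 0.05 (4.17% of all genes). Directly, cdc4-3 minus skp1-25 was above 0 for 46 of 46 genes (63% of all genes), with a median of 0.46 and 6 genes at an unadjusted p under 0.05 (3.52% of all genes). SDH2 changed by 0.25 in cdc4-3 and -1.01 in skp1-25, IDH1 by 0.42 and -0.07, and IDH2 by 0.36 and -0.14, values that describe strains and genes picked with them known. The comparisons share arrays and are not independent of each other.

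Across the 5 strains as replicates, the shift to 35 °C raised 2 of 46 genes and lowered 0, where 13% of all genes rose and 4.61% fell, and 8 had an unadjusted p under 0.05, against 34.2% of all genes. The split over all genes depends on scaling: 73.8% of the called genes rose as deposited, 51.0% after median centring and 47.9% after quantile normalization. COX5B, whose protein replaces that of COX5A in complex IV at low oxygen, stood at 35 °C at 10.84 in skp1-25, 11.50 in cdc4-3, 11.84 in cdc53-1, 11.17 in cdc34-3 and 11.69 in skp1-11. At RT it stood at 10.22 in skp1-25, 10.22 in cdc4-3, 11.23 in cdc53-1, 10.93 in cdc34-3 and 10.88 in skp1-11. Every strain was higher at 35 °C, although the ranges overlap across strains. Its mean was 11.41 ± 0.40 at 35 °C and 10.70 ± 0.45 at RT (SD, n = 5 strains each), a rise of 0.71 ± 0.38, or 1.64-fold (95% interval 0.37 to 1.05, limma adjusted p = 0.0211). Without skp1-11 this missed the threshold (adjusted p = 0.0699), and without the strain block it did too (adjusted p = 0.117). COX5A had a change of -0.08 ± 0.20 (SD, n = 5, limma adjusted p = 0.577).

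The cytochrome c isoform genes did not pass in the shift. CYC7 stood at 35 °C at 10.10 in skp1-25, 12.29 in cdc4-3, 12.01 in cdc53-1, 10.88 in cdc34-3 and 11.71 in skp1-11. At RT it stood at 10.06 in skp1-25, 11.78 in cdc4-3, 11.77 in cdc53-1, 11.63 in cdc34-3 and 11.16 in skp1-11. Its change was above 0 in 4 of 5 strains and -0.74 in cdc34-3, with a mean of 0.12 ± 0.53 (SD, n = 5, limma adjusted p = 0.697). CYC1 had a mean change of -0.02 ± 0.14 (SD, n = 5, limma adjusted p = 0.849).

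**Figure D4:**
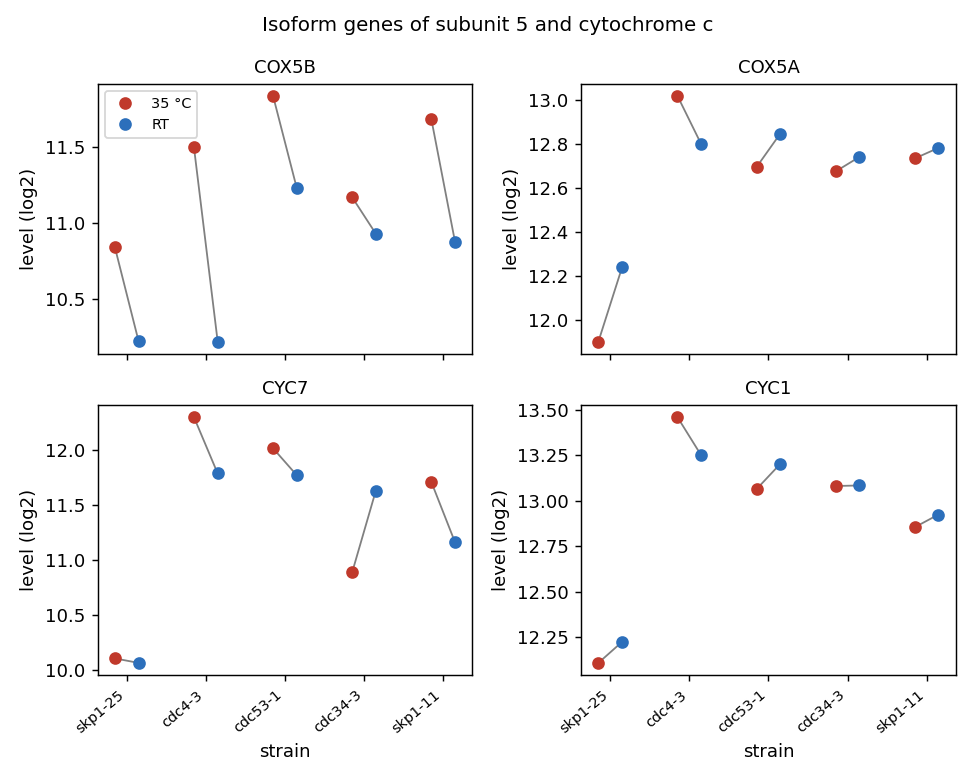
Level (log2) of the isoform genes COX5B, COX5A, CYC7 and CYC1 in each strain at 35 °C (red, left) and RT (blue, right), 1 array per point, with each gene on its own scale. COX5B is higher at 35 °C in all 5 strains, and both cytochrome c genes and COX5A are lowest in skp1-25.

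QCR10 was the other gene that rose, by 0.22 ± 0.08 in 5 of 5 strains (SD, n = 5, limma adjusted p = 0.0498), and it missed the threshold when any strain was left out and after median centring or quantile normalization. Counting all members, 6 moved up in all 5 strains (21.7% of all genes) and 1, COX4, moved down in all 5 (11% of all genes). Besides COX5B and QCR10 the 6 were COX7, COX13, ATP7 and FUM1, with mean changes from 0.10 to 0.27 that did not pass. COX4 changed by -0.20 ± 0.16 (SD, n = 5, limma adjusted p = 0.118). It was called lower, as was COX12, after median centring or quantile normalization. IDH1 and IDH2 had mean changes of 0.16 ± 0.20 and 0.12 ± 0.21 (SD, n = 5, limma adjusted p = 0.229 and 0.397), each above 0 in the same 4 strains and below 0 in skp1-25.

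Genes around the chain were read from 7 lists, of which 6 had measured genes, 104 in all, and genes named below for skp1-25 or cdc4-3 levels were chosen after their values were seen. HAP4, the limiting activator subunit, stood in skp1-25 at 9.65 at 35 °C and 10.88 at RT, against 10.63 to 12.00 on the other 8 arrays, so the ranges overlapped. Its standing difference in skp1-25 was -0.94, which did not pass (limma adjusted p = 0.116), and of the 12 regulators measured 0 were called in skp1-25, with a median of -0.13. CAT8, an activator of gluconeogenic genes, was the one regulator called in the shift and rose by 1.00 ± 0.41 in 5 of 5 strains (SD, n = 5, limma adjusted p = 0.0100), a call kept under every alternative run.

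The list of other respiratory subunits and dehydrogenases, which also holds inhibitors of ATP synthase, had calls in skp1-25 and in the shift. Of 13, 3 were lower in skp1-25 and 0 higher (1.73% and 1.08% of all genes), with a median of -0.50: the lactate dehydrogenase gene CYB2, which feeds electrons to cytochrome c, by -2.24, the ATP synthase inhibitor gene INH1 by -0.86 and the cytochrome b5 gene CYB5 by -0.67 (limma adjusted p = 0.0154, 0.0210 and 0.0375). In the shift 5 of 13 rose and 0 fell (13% and 4.61% of all genes). CYB2 rose by 2.05 ± 0.56, the external NADH dehydrogenase gene NDE2 by 1.76 ± 0.49, STF1, for another protein that binds ATP synthase, by 0.52 ± 0.24 and the lactate dehydrogenase gene DLD1 by 0.51 ± 0.30 (SD, n = 5, limma adjusted p = 0.0041, 0.00431, 0.0178 and 0.0304). The CYB2, NDE2 and skp1-25 CYB2 calls were kept whichever strain was left out. The INH1 call was lost without cdc53-1, the CYB5 call when any strain was left out, the DLD1 call in 4 of 5 such fits and the STF1 call without skp1-11. Standing levels were also called higher in cdc4-3 for 2 of 13, CYB2 by 1.43 and GUT2 by 0.98 (limma adjusted p = 0.0386 and 0.0376, 2.46% of all genes). In cdc53-1 INH1 and STF1 were called higher, by 0.55 and 0.61 (limma adjusted p = 0.0409 for each, 2.72% of all genes).

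Assembly factors of the complexes were lower in skp1-25 for 5 of 34 genes and higher for 0 (1.73% and 1.08% of all genes), with a median of -0.34 and 33 of 34 below the mean of the others (50.4% of all genes). They were COX15, COX20 and SHY1, which act in building complex IV, CBP3, which acts on complex III, and SDH7, which acts on complex II, with differences from -0.70 to -0.50 (limma adjusted p from 0.0294 to 0.0481). Without cdc53-1 0 of the 34 passed, and without skp1-11 1 did. In cdc4-3, 33 of 34 stood above the mean of the others (53.2% of all genes), with a median of 0.33, and 2, COX20 and CYT2, were higher (2.46% of all genes). COX20 was not low in skp1-25 alone: it stood at 10.92 at 35 °C and 10.91 at RT in skp1-25, 11.13 and 10.90 in skp1-11, 12.77 and 12.30 in cdc4-3, and 11.37 to 11.48 in cdc53-1 and cdc34-3. Limma called it higher in cdc4-3 by 1.33 and lower in skp1-11, with a difference of -0.57 (adjusted p = 0.00241 and 0.0367). In the shift 4 of 34 rose and 1 fell, a share near that of all genes (13% and 4.61%). CYC3, which attaches haem to cytochrome c, rose by 0.43 ± 0.21, the complex II factor genes SDH5 and SDH6 rose by 0.43 ± 0.26 and 0.73 ± 0.48, and BCS1, which inserts the Rieske protein into complex III, fell by 0.40 (SD, n = 5, limma adjusted p = 0.0238, 0.0361, 0.0361 and 0.0372). None of these 4 calls held in every fit with a strain left out.

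Ubiquinone synthesis, carriers and the other carbon enzymes had 0 genes called in skp1-25 out of 9, 15 and 21, with medians of -0.20, -0.09 and -0.05. Of the 15 carriers 5 were higher in cdc4-3 and 0 lower (2.46% of all genes higher), by 0.72 to 1.48: PIC2, ODC2, SFC1, CTP1 and OAC1. The CTP1 and OAC1 calls (limma adjusted p = 0.0101 and 0.00915) were kept under every alternative run, and each of the others was lost in some. In the shift, 13% of all genes rose and 4.61% fell. Ubiquinone synthesis had 0 rises and 1 fall of 9, COQ1 by 0.24. Carriers had 2 rises and 2 falls of 15, among them OAC1, an oxaloacetate carrier gene, which fell by 0.57, AAC3, an ADP/ATP carrier gene, which fell by 0.54, and the dicarboxylate carrier gene DIC1, which rose by 0.49 (limma adjusted p = 0.00604, 0.0188 and 0.0347). Other carbon enzymes had 4 rises and 2 falls of 21: the isocitrate lyase gene ICL1 fell by 0.59 and the cytosolic malate dehydrogenase gene MDH2 by 0.53, while the phosphoenolpyruvate carboxykinase gene PCK1 rose by 0.50 and the cytosolic isocitrate dehydrogenase gene IDP2 by 0.44 (limma adjusted p = 0.0107, 0.0236, 0.0287 and 0.0365). Of the calls in the shift named for these 3 lists, those of OAC1 and ICL1 were kept whichever strain was left out, and the others were not.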

How the data were processed

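Each strain and temperature was measured on 1 Affymetrix yeast expression array, and the authors deposited 1 value table of 5716 probe sets for 10 arrays, with values from 0 to 14.7. Per the deposited table the unit is read as log2, from the range of the values. The sources used here do not give the array software, normalization or log base, and there is no read depth, so the number of arrays limits precision. Probe sets were named through the platform annotation: 5498 have 1 gene symbol, 0 several and 218 none, and 12 symbols were updated with the RefSeq table of R64. For 47 genes with several probe sets the one with the highest mean was kept, which left 5449 genes, and no low-value filter was applied.

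Tests used limma 3.58.1 (R 4.3.3, two-sided, Benjamini-Hochberg over 5449 genes, threshold 0.05), with the scripts tested on simulated data. The temperature shift used strain as a block, since both arrays of a strain come from the same strain. Their deviations from the temperature means correlated at 0.43 to 0.77, against at most 0.12 between strains. Centring on the mean of 5 strains itself lowers the correlations between strains, so that contrast is partly set by the method. Standing levels came from a model of strain plus temperature with 4 residual degrees of freedom, and differences in change from the 5 within-strain changes. The members and gene lists were chosen with earlier results of these data known. Named members were those past a threshold, the 5 highest and 5 lowest changes in cdc4-3 and skp1-25, and 3 gene pairs (CYC1 with CYC7, COX5A with COX5B, IDH1 with IDH2). Named genes of the other lists were up to 4 per list by the size of the limma statistic in the shift, plus HAP4, and genes named for their level in skp1-25 or cdc4-3, which were chosen after their values were seen. Alternatives were median centring, quantile normalization, a low-level filter, the mean of probe sets, no strain block and leaving out each strain. Mitochondrially encoded genes were not analysed here.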

Additional observations from a re-analysis of the deposited data

Results flagged for a closer look

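In each gene's 5 levels at 35 °C, 5 levels at RT and 5 changes, 138 sets in all, the gap between the most extreme strain and its nearest neighbour was divided by the whole range and compared with Dixon's critical value of 0.710. The gap passed it in 8 of the 138 sets. Chance alone passes about 1 set in 20, so the count is close to the chance rate. The sets share arrays and are not independent, and the same share over all genes was not tested. The sets that passed are therefore listed only as a description. The strain was skp1-25, as the lowest, in 6 of the 8, but it had been picked out before, and whether this exceeds chance was not tested. For levels at 35 °C the share of the range was 0.735 for SDH1, 0.726 for SDH4 and 0.749 for the ATP synthase stalk gene ATP4. For levels at RT it was 0.825 for COX5A and 0.7105 for COX6. For changes it was 0.728 for the ATP synthase gene ATP17.

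Of the remaining 2 sets, skp1-11 was the lowest for the RT level of LSC1, a succinyl-CoA ligase gene, with 0.801. FUM1, the fumarase gene, had its highest change in cdc4-3, with 0.779.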

How the results depend on the processing

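There is 1 array per strain and temperature, and the counts depend on the strains that enter and on scaling. Lower members in skp1-25 numbered 2 to 15 when a strain was left out, against 18 with all, and 2 against cdc34-3 alone and 3 against skp1-11 alone, comparisons chosen after seeing the data. Fits with a strain left out hold fewer samples. Higher members in cdc4-3 numbered 0 to 3 with a strain left out, 1 after quantile normalization and 4 with the low-level filter, which tests fewer genes (4086). In cdc53-1 they numbered 0 to 2 with a strain left out and 6 after median centring and after quantile normalization. Members higher at 35 °C numbered 0 to 1 with a strain left out, 1 after median centring, quantile normalization or averaging probe sets, and 0 with no replicate block, that is without the pairing by strain. Members lower at 35 °C numbered 2 after either scaling. Members with a change above 0 numbered 5 in skp1-25 after median centring, and 15 in cdc34-3 and 13 in skp1-11 after quantile normalization. The cause of these shifts with scaling was not tested. No single called gene changed direction, but medians near 0 did: over the 5 strains the members' median change was 0.03 as deposited, -0.04 after median centring, -0.06 after quantile normalization and -0.03 without cdc4-3. Of the refits of single called members, 174 kept their side of the threshold and 94 lost their call, as did 218 and 132 of those of named genes in the other lists. The differences in change between strains gave 0 members under every alternative run. The planned search for promoter motifs was not run.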
